A study of Mus musculus with 20 samples.

Results

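The genes described here are 10 genes of fatty acid synthesis and desaturation: Acly, Acaca, Fasn, Scd1, Scd2, Elovl6, Me1, Thrsp, Srebf1 and Acss2. They were taken by gene symbol from the platform's annotation, through probe sets that carry exactly 1 symbol. Where a gene had several such probe sets, the set with the highest mean over the 20 arrays was used. All 10 were found among the 19937 genes measured in this way. Acaca and Me1 had 2 such probe sets each and the other members 1 each. The rule uses measured values only to choose between probe sets of a gene.

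The arrays, 20 in all, carried RNA of mouse mammary epithelial cells sorted 4 weeks after tamoxifen, which every group received, controls included. Control mice were K8-creERT2, and mutant mice were K8-creERT2/PIK3CA H1047R, both on a mixed FVB/CD-1 background. Cre was driven by the keratin 8 promoter, a luminal keratin promoter, and GFP marked cells that expressed the mutant PIK3CA transgene, the catalytic subunit of PI3-kinase. Each pool held glands from 2 to 3 mice in the same estrus phase, there were 3 independent sortings, and each array received amplified material from the RNA of 2000 sorted cells. The CD45-negative cells were split into a basal gate (CD24low, Sca1-negative) and 2 luminal gates (CD24high, Sca1-negative or Sca1-positive). The 3 control groups were GFP-negative basal, Sca1-negative luminal and Sca1-positive luminal cells, with 3 arrays each. The 4 mutant groups were GFP-negative basal cells, GFP-positive basal cells, GFP-positive Sca1-negative luminal cells (3 arrays each) and GFP-positive Sca1-positive luminal cells (2 arrays, numbered 1 and 3). Mutant luminal cells and GFP-positive mutant basal cells therefore differ from the control cells of their gate in GFP sorting as well as in genotype. The mice's ages are not given in the labels.

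Fatty acids are built in the cytosol from acetyl-CoA, which Acly makes from citrate and Acss2 makes from acetate. Acaca turns acetyl-CoA into malonyl-CoA, Fasn joins these units into palmitate with NADPH that enzymes such as Me1 provide, Elovl6 lengthens the chain, and Scd1 and Scd2 introduce a double bond. Srebf1 encodes a transcription factor that drives many of these genes, and Thrsp encodes a small protein tied to lipid synthesis. In the mammary gland the pathway is best known in the alveolar cells of lactation, which make milk fat.

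Promoter sequences are shown for 4 members that represent the patterns described below: Elovl6 and Thrsp, which were higher in GFP-positive than in GFP-negative basal cells, Me1, which was higher in both mutant basal groups than in control basal cells, and Fasn, which was called in no comparison. Each is 300 bases, 250 before and 50 after an annotated start, 5′ to 3′ on the gene's strand, from RefSeq on build GRCm38.p6. Capitals mark matches, on either strand, to CCAAT (the NF-Y motif) or GGGCGG (the Sp1 motif). The sequences lie at chr3:129532136-129532435 (plus strand, Elovl6), chr7:97417501-97417800 (minus strand, Thrsp), chr11:120824498-120824797 (minus strand, Fasn) and chr9:86695865-86696164 (minus strand, Me1).
Elovl6: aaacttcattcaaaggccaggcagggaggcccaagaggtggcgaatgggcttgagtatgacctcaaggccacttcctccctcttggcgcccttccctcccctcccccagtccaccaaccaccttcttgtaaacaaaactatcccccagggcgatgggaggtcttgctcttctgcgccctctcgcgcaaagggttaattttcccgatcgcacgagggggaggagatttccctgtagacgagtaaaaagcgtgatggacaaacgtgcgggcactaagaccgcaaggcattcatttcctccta
Thrsp: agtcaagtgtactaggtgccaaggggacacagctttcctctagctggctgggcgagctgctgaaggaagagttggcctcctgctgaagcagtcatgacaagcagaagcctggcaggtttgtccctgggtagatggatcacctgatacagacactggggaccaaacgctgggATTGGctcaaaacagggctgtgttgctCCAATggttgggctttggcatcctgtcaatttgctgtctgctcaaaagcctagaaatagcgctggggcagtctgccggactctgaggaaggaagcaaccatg
Fasn: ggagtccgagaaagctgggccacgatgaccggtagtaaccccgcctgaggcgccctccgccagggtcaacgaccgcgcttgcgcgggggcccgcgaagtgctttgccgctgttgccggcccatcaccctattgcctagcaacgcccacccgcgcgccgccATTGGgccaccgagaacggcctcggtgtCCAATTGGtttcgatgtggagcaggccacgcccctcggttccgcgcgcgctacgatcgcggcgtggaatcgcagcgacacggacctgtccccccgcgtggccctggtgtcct
Me1: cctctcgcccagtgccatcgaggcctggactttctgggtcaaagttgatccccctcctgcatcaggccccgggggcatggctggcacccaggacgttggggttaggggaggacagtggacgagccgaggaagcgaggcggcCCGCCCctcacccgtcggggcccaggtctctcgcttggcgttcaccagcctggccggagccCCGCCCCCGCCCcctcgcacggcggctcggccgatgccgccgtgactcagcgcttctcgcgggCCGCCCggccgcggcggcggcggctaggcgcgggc
The Elovl6 window held none of the 4 motifs searched. The Thrsp window held 2 CCAAT matches and the Fasn window 3, of which a pair on opposite strands overlap. The Me1 window shown held 4 GGGCGG matches. Another Me1 start, at chr9:86687228-86687527 and not shown, held 1 CCAAT match and 0 GGGCGG matches. The other 2 motifs were TCACNCCAC, a sterol regulatory element, and CACGTG, an E-box, also searched on both strands. The RefSeq table held 11 starts for 8 of the 10 members, with Scd1 and Scd2 not among them. CCAAT was found at 7 of the 11 starts against 37.4% of 32851 promoters of this length, and GGGCGG at 5 against 35.7%. TCACNCCAC and CACGTG were found at 0 of the 11 starts, against 1.24% and 7.15% of all promoters. These matches describe letters within 300 bases and say nothing of whether a factor binds there. The arrays do not show which start a cell used.

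Values are log2 probe set values as deposited, so a difference of 1 is a doubling on this scale. The median over all probe sets was between 3.66 and 3.80 on every array. Arrays of the same group correlated at r = 0.931 to 0.971 over all probe sets. Of the 20 arrays, 2 had a narrower spread of values (SD 1.71 in GFP-positive basal replicate 2 and 1.72 in control Sca1-positive luminal replicate 2) than the other 18 (1.78 to 1.88). The number of arrays limits the precision. In RNA of 2000 sorted cells, more cells that express a gene and more of its RNA per cell cannot be told apart.

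The 10 genes did not move as a block. The called differences between mutant and control cells were in chain lengthening (Elovl6), desaturation (Scd2) and NADPH supply (Me1). The acetyl-CoA genes Acly and Acss2 and the core synthesis genes Acaca and Fasn had no called difference, and their largest difference was 0.71 log2 units (Fasn). In limma's test with p adjusted over all 19937 genes, 3 members (Elovl6, Scd2 and Me1) rose in GFP-positive basal cells against control basal cells, where 2.32% of all genes were called higher. Within the mutants' basal gate 3 members (Elovl6, Scd2 and Thrsp) were higher in GFP-positive than in GFP-negative cells, and 2.05% of all genes were. In GFP-negative mutant basal cells 1 member, Me1, rose over control, against 0.0953% of all genes. In the Sca1-negative luminal gate limma called 0 of the 10 members, where 1.21% of all genes were called higher. An unadjusted p under 0.05 was found there for 4 members and for 2235 of all 19937 genes. In the Sca1-positive luminal gate limma also called 0, where 0.181% of all genes were called higher. An unadjusted p under 0.05 was found there for 3 members and for 1786 of all 19937 genes.

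**Figure D1:**
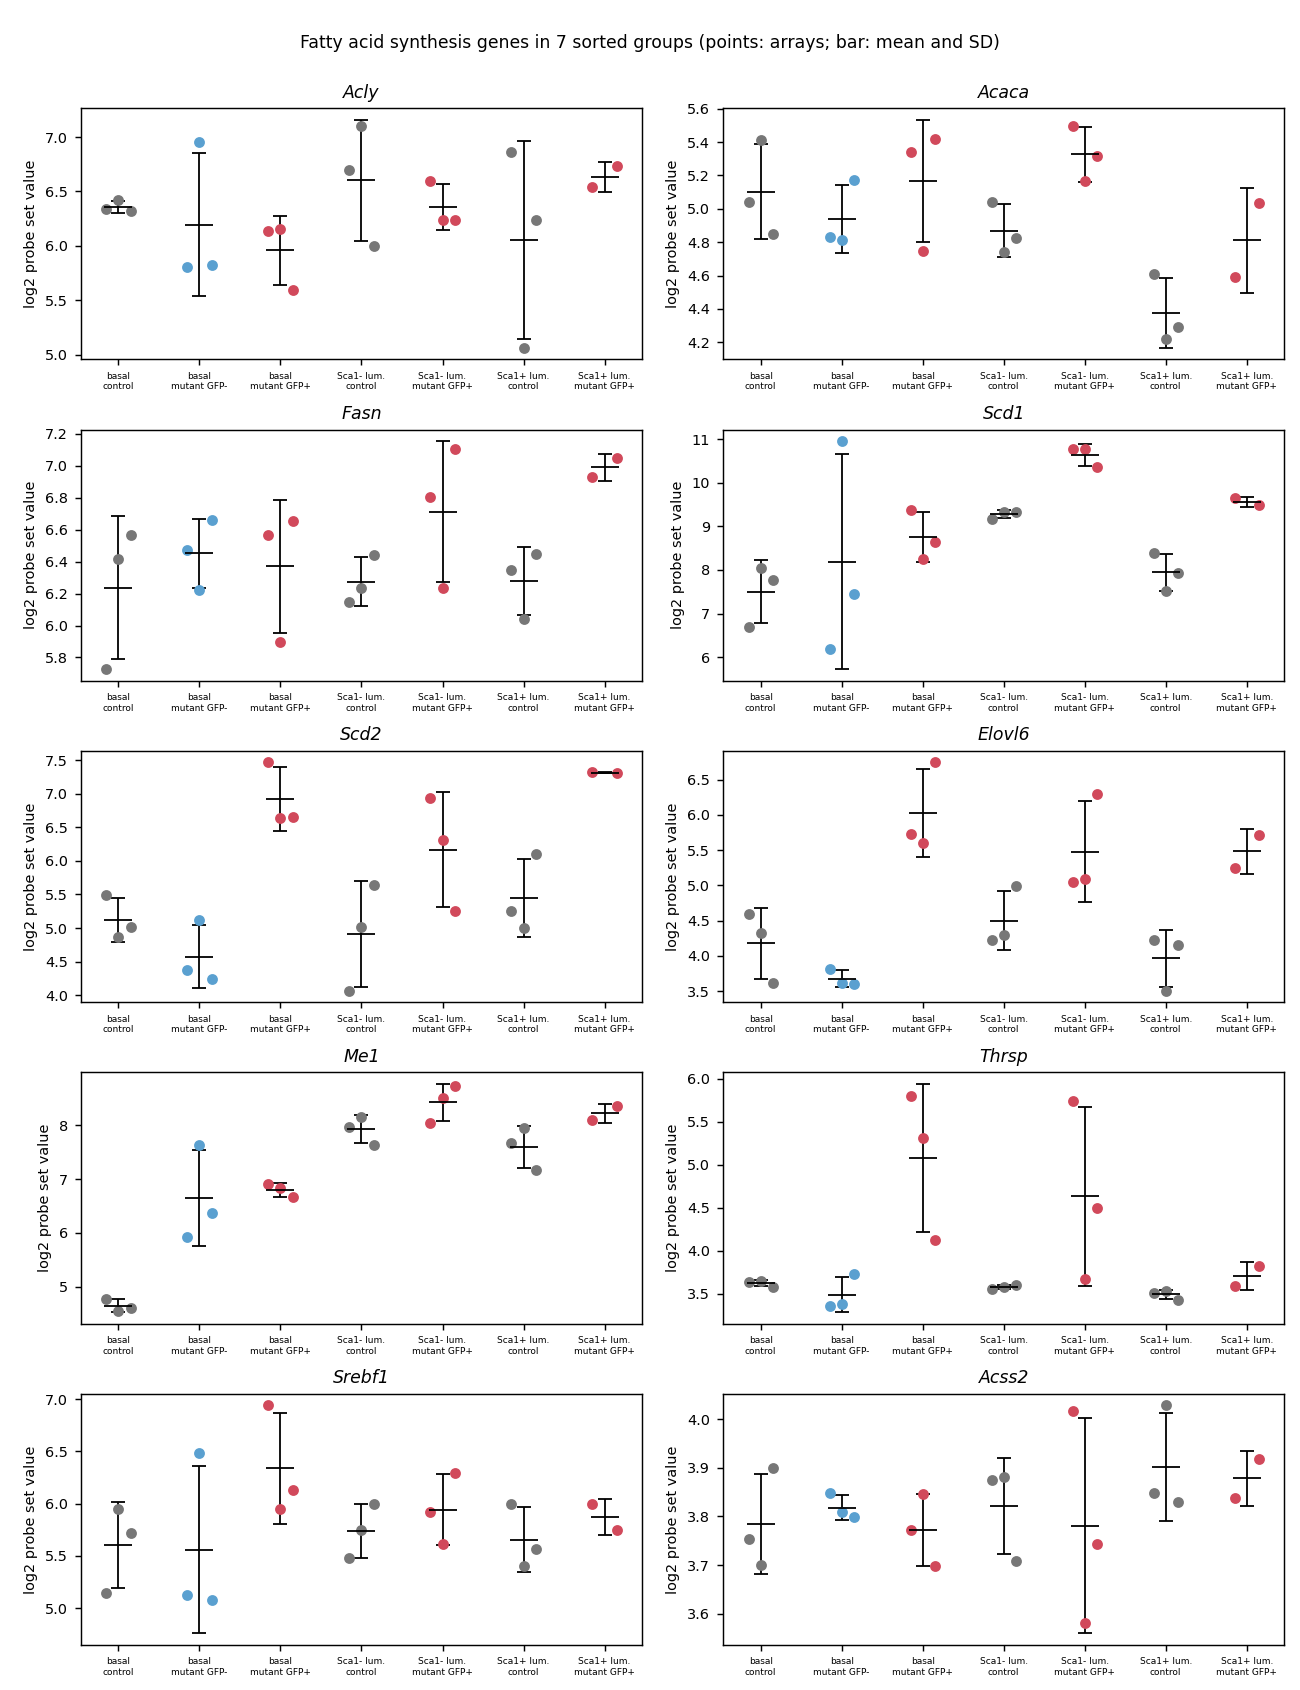
Log2 probe set value (vertical axis) of each of the 10 genes on every array, by sorted group (horizontal axis), with grey points for control, blue for GFP-negative mutant and red for GFP-positive mutant arrays, and a bar with whiskers for the group mean and SD. Me1 is lowest in control basal cells (4.56 to 4.79), and 1 GFP-negative basal array is the highest of all for Scd1 (10.96).

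The median log2 difference over the members was 0.48 in mutant against control Sca1-negative luminal cells, 0.61 in Sca1-positive luminal cells and 0.99 in GFP-positive against control basal cells. It was -0.09 in GFP-negative against control basal cells and 0.39 between the GFP-positive and GFP-negative basal cells. Over all genes the medians of these 5 comparisons were -0.03, -0.05, -0.03, -0.02 and -0.01. The difference was positive in 8, 9, 8, 4 and 7 of the 10 members, in the same order. The comparisons are not independent: both mutant basal groups were set against the same control arrays, and the GFP-positive against GFP-negative comparison uses the arrays of both.

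**Figure D2:**
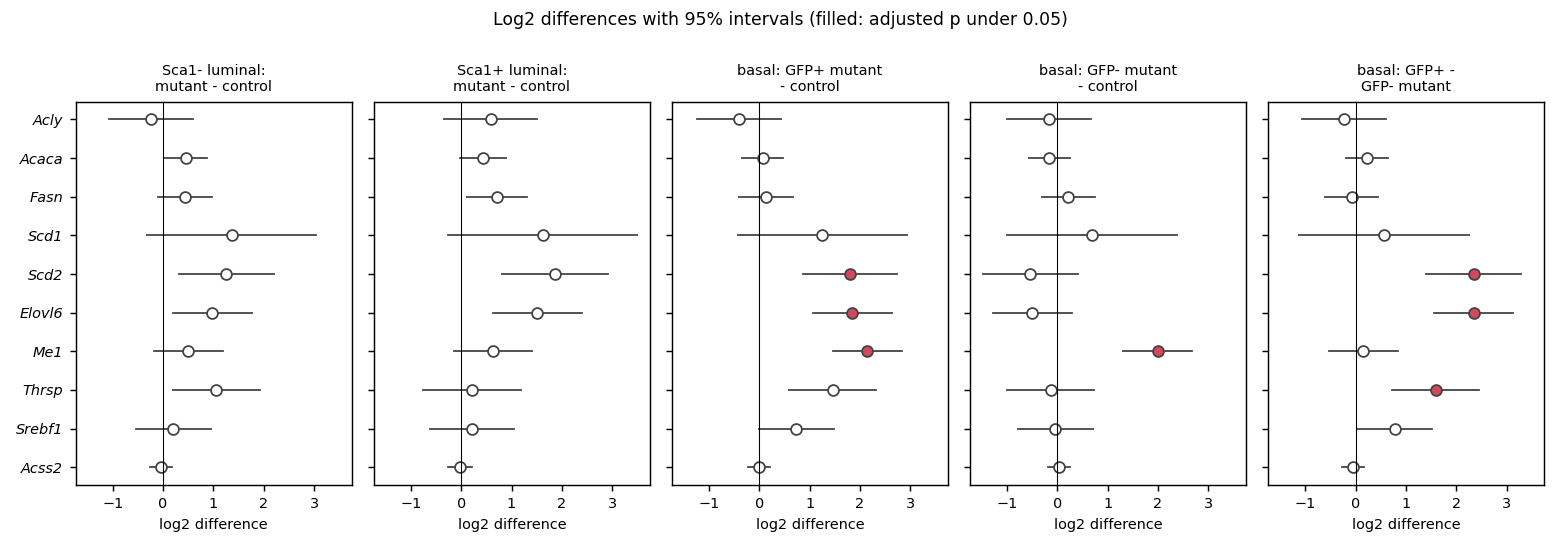
Log2 difference (horizontal axis) of each of the 10 genes (vertical axis) in the 5 comparisons, with 95% intervals from the fit over all 20 arrays. Filled points passed an adjusted p of 0.05: Scd2, Elovl6 and Me1 in GFP-positive basal cells against control, Me1 in GFP-negative basal cells against control, and Scd2, Elovl6 and Thrsp in GFP-positive against GFP-negative basal cells.

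Acetyl-CoA supply showed no called difference between mutant and control cells. Acly, the citrate-cleaving enzyme (probe set 10391146), had group means from 5.96 ± 0.32 (SD, n = 3) in GFP-positive basal cells to 6.64 ± 0.14 (SD, n = 2) in mutant Sca1-positive luminal cells, and every group overlapped the next in that order. In basal cells Acly read 6.34, 6.42 and 6.32 in controls and 6.13, 6.15 and 5.59 in GFP-positive cells. These arrays did not overlap, and the log2 difference of -0.40 ± 0.39 (SE) was not called (limma, adjusted p = 0.706). Lower arrays without overlap were found for 11.4% of all genes in this comparison. Acss2, the acetate-activating enzyme (probe set 10477649), lay between 3.58 and 4.03 on all 20 arrays. That is close to the median of all probe sets, so the array gives little information on Acss2, and its differences in the 5 comparisons ran from -0.05 to 0.03.

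Me1, the cytosolic malic enzyme (probe set 10595480), separated the groups more than any other member, with group means that spanned 3.77 log2 units. In control basal cells it read 4.79, 4.56 and 4.62. In GFP-negative basal cells of the mutants it read 5.92, 7.63 and 6.38, and in GFP-positive basal cells 6.91, 6.83 and 6.66. Every mutant basal array was above every control basal array, whether or not the sorted cells carried GFP. The difference from control was 2.14 ± 0.32 (SE) in GFP-positive cells, a 4.42-fold higher level (limma, adjusted p = 0.00084). It was 1.99 ± 0.32 in GFP-negative cells, 3.97-fold (adjusted p = 0.0252).

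Between the GFP-positive and GFP-negative basal cells Me1 differed by 0.15, with a 95% interval from -0.53 to 0.84 (adjusted p = 0.922). That interval does not show that the cells have the same level, but it lies below both differences from control. The call in GFP-negative cells was lost with only the compared arrays in the fit (adjusted p = 0.564), with array weights (0.061) and without control basal replicate 2 (0.0573) or 3 (0.0525). Without the high GFP-negative array, replicate 2, the difference was 1.49 (adjusted p = 0.0258). In GFP-positive cells the call held under all 30 alternatives tried.

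In luminal cells Me1 was high in every group. It read 7.96, 8.15 and 7.64 in control and 8.05, 8.49 and 8.72 in mutant Sca1-negative cells, which overlap. In Sca1-positive cells it read 7.67, 7.94 and 7.16 in controls and 8.09 and 8.34 in mutants, which do not. Neither luminal difference was called (0.50 and 0.63, adjusted p = 0.661 and 0.632). The second Me1 probe set, 10405753, was dimmer and ranked the basal groups alike in that both mutant means (4.94 GFP-negative, 4.43 GFP-positive) lay above the control mean (3.50). On that set the mutant Sca1-negative luminal mean was 7.06 against 5.78 in control, a wider gap than on the set used.

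The 2 enzymes at the core of the pathway had no called difference between mutant and control cells. Acaca, acetyl-CoA carboxylase (probe set 10394538), read 5.04, 4.74 and 4.83 in control and 5.50, 5.16 and 5.32 in mutant Sca1-negative luminal cells. All mutant arrays were higher, by 0.46 ± 0.19 (SE), and the difference was not called (adjusted p = 0.373). In basal cells Acaca differed from control by 0.06 in GFP-positive and -0.16 in GFP-negative cells. Its second probe set, 10379820, had its highest mean in control basal cells (5.77) and a mean of 5.03 in GFP-positive basal cells, so the Acaca sets disagree on the basal groups.

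Fasn, the fatty acid synthase (probe set 10393970), had its highest means in mutant luminal cells, at 6.99 ± 0.08 (SD, n = 2) in the Sca1-positive and 6.71 ± 0.44 (SD, n = 3) in the Sca1-negative gate. In Sca1-positive cells it read 6.35, 6.04 and 6.45 in controls against 6.93 and 7.05 in mutants. The groups did not overlap, and the difference of 0.71 ± 0.28 (SE) was not called (adjusted p = 0.465). In basal cells the 3 groups overlapped, with differences from control of 0.14 in GFP-positive and 0.22 in GFP-negative cells.

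Elovl6, the elongase of palmitate (probe set 10495993), was higher in each GFP-positive group than in the control group of the same gate. In basal cells it read 4.59, 4.33 and 3.62 in controls, 3.81, 3.62 and 3.60 in GFP-negative and 5.73, 5.60 and 6.74 in GFP-positive mutant cells. The GFP-positive arrays were above all the other basal arrays. Elovl6 was 3.59-fold higher in GFP-positive than in control basal cells (log2 1.85 ± 0.37 SE, limma adjusted p = 0.00836). It was higher than in GFP-negative basal cells by 2.34 ± 0.37 on the log2 scale (adjusted p = 0.00143), and no fold is given because the GFP-negative arrays lay at the array median. The difference between GFP-negative and control basal cells was -0.50, with a 95% interval from -1.29 to 0.29. The call against GFP-negative cells held under all 30 alternatives, and the call against control was lost under 1, with only the compared arrays in the fit (adjusted p = 0.0956).

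In luminal cells Elovl6 read 4.22, 4.29 and 4.99 in control and 5.04, 5.09 and 6.30 in mutant Sca1-negative cells. In Sca1-positive cells it read 4.23, 3.51 and 4.16 in controls and 5.25 and 5.71 in mutants. Mutant arrays were above control arrays in both gates, without overlap. The differences, 0.98 ± 0.37 and 1.52 ± 0.41 (SE), had unadjusted p of 0.0182 and 0.00223 and were not called over all genes (limma, adjusted p = 0.285 and 0.202). All 3 transgene-expressing groups headed the order of Elovl6 means, at 6.02, 5.48 and 5.48, and overlapped among themselves. The next group, control Sca1-negative luminal cells, had a mean of 4.50 and did not overlap the mutant Sca1-negative group.

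Scd2, a stearoyl-CoA desaturase (probe set 10463355), had a pattern like that of Elovl6. In basal cells it read 5.49, 4.86 and 5.01 in controls, 4.37, 5.11 and 4.24 in GFP-negative and 7.46, 6.64 and 6.65 in GFP-positive mutant cells. Again the GFP-positive arrays were above all the others in the basal gate. Scd2 was 3.48-fold higher than in control (log2 1.80 ± 0.44 SE, limma adjusted p = 0.0294) and 5.08-fold higher than in GFP-negative cells (2.35 ± 0.44, adjusted p = 0.00641). The call against GFP-negative cells held under all 30 alternatives. The call against control held under 23, and was lost with array weights (adjusted p = 0.0518), without both arrays of narrow spread (0.0555), without control basal replicate 2 (0.0937) or 3 (0.0847) and without GFP-positive replicate 1 (0.127), 2 (0.0506) or 3 (0.0527).

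In Sca1-positive luminal cells Scd2 read 5.26, 4.99 and 6.10 in controls and 7.32 and 7.31 in mutants. The groups did not overlap, and the difference of 1.86 ± 0.50 (SE) had an unadjusted p of 0.00184 and an adjusted p of 0.190. In Sca1-negative luminal cells it read 4.07, 5.02 and 5.64 in controls and 6.94, 6.31 and 5.25 in mutants, which overlap (difference 1.26 ± 0.44 SE, adjusted p = 0.236). The highest mean of Scd2 was thus in mutant Sca1-positive luminal cells (7.31), which overlapped GFP-positive basal cells (6.92).

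Scd1, the other desaturase among the members (probe set 10467979), was brightest in mutant Sca1-negative luminal cells, at 10.78, 10.78 and 10.35 against 9.17, 9.32 and 9.34 in controls. In Sca1-positive luminal cells it read 9.64 and 9.48 in mutants and 8.38, 7.52 and 7.92 in controls. The mutant arrays were higher in both gates, without overlap, by 1.36 ± 0.79 and 1.62 ± 0.89 (SE). Neither was called (limma, adjusted p = 0.598 and 0.621). In basal cells it read 6.70, 8.05 and 7.77 in controls and 9.37, 8.25 and 8.65 in GFP-positive cells, again without overlap (difference 1.25 ± 0.79, adjusted p = 0.491).

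Scd1 varied most within the GFP-negative basal cells, which read 6.18, 10.96 and 7.44. Replicate 2 of this group was the highest Scd1 value of all 20 arrays. The within-group SD of Scd1, pooled over the 7 groups, was 1.05, larger than that of 99.7% of genes, against a median of 0.20 over all genes. With only the arrays of control and mutant Sca1-negative luminal cells in the fit, the Scd1 difference of 1.36 there was called (adjusted p = 0.0145).

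The same array, GFP-negative basal replicate 2, was also the highest of its group for Srebf1 (6.49 against 5.12 and 5.07), Acly (6.95 against 5.80 and 5.82), Me1 (7.63 against 5.92 and 6.38) and Scd2 (5.11 against 4.37 and 4.24). It was not for Fasn (6.22 against 6.47 and 6.66), Acaca (4.81 against 4.83 and 5.17) or Elovl6. Its mean over 6 luminal markers was 7.60, the lowest of its group, and its mean over 8 adipocyte markers was 4.09, the highest of the 20 arrays (the other 19 lay between 3.75 and 4.02). Of these markers Fabp4 read 5.39 on this array, against 3.62 and 4.39 in the rest of its group. Adipoq (3.69), Plin4 (3.74) and Cidec (3.87) were also highest of the group on this array. Lep (3.32), Plin1 (4.63) and Retn (3.36) were the lowest of the group there, and Lipe (4.74) lay between. The part of adipocyte RNA in its high values was not tested. Without this array, 4 members were called between GFP-positive and GFP-negative basal cells: Scd2 (2.62, adjusted p = 0.00672), Elovl6 (2.32, 0.00622), Scd1 (1.94, 0.0189) and Srebf1 (1.24, 0.0367). Thrsp was then not called (1.54, adjusted p = 0.108).

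**Figure D3:**
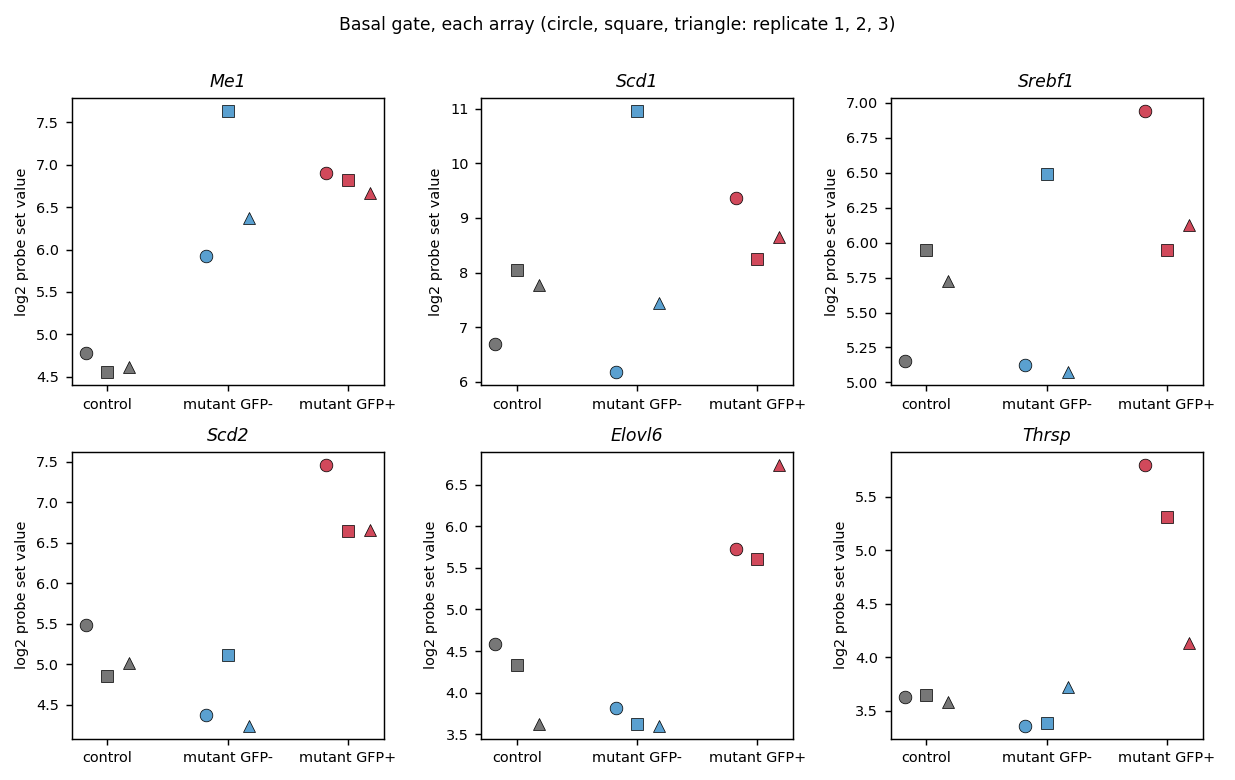
Log2 probe set value (vertical axis) of 6 of the genes on each of the 9 basal arrays, by group (horizontal axis), with circles, squares and triangles for replicates 1, 2 and 3. Replicate 2 of the GFP-negative cells is high for Me1 (7.63), Scd1 (10.96) and Srebf1 (6.49), while Elovl6 (5.60 to 6.74) and Scd2 (6.64 to 7.46) are above all other basal arrays only in GFP-positive cells.

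Srebf1, the transcription factor gene (probe set 10386473), had group means within 0.78 log2 units of one another, and each group overlapped the next. It read 5.15, 5.95 and 5.72 in control, 5.12, 6.49 and 5.07 in GFP-negative and 6.94, 5.95 and 6.13 in GFP-positive basal cells. The difference from control was 0.73 ± 0.35 (SE, limma adjusted p = 0.323) in GFP-positive cells, and the luminal differences were 0.20 and 0.22.

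Thrsp, the lipogenesis-associated gene (probe set 10565609), was near the array median in all controls, where its 9 arrays lay between 3.43 and 3.65. It read 5.80, 5.31 and 4.13 in GFP-positive and 3.36, 3.38 and 3.72 in GFP-negative basal cells of the mutants. The groups did not overlap, and Thrsp was higher in the GFP-positive cells by 1.59 ± 0.41 (SE) on the log2 scale (limma, adjusted p = 0.0440). The GFP-negative arrays lay at the array median, so no fold is given. The call held under 10 of 30 alternatives, with adjusted p from 0.00701 to 0.237, and it was lost without GFP-positive basal replicate 1 (0.181) or 2 (0.137) or any GFP-negative basal array (0.0651 to 0.120).

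Against control basal cells the Thrsp difference was 1.46 ± 0.41 (SE), with an adjusted p of 0.0570, and it was called under 6 of 30 alternatives. In mutant Sca1-negative luminal cells Thrsp read 5.74, 3.67 and 4.49. These were all above the controls (3.56, 3.58 and 3.60), but replicate 2 was only just so, and the difference of 1.06 ± 0.41 was not called (adjusted p = 0.296). In mutant Sca1-positive luminal cells it read 3.59 and 3.82 against 3.51, 3.53 and 3.43.

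Arrays of the mutant group lay entirely above those of the control group for 4 members in Sca1-negative luminal cells (Acaca, Scd1, Elovl6 and Thrsp), where 9.12% of all genes did so. In Sca1-positive luminal cells, with 2 mutant arrays, this was so for 6 members (Fasn, Scd1, Scd2, Elovl6, Me1 and Thrsp), against 10.9% of all genes. In GFP-positive against control basal cells it held for 5 (Scd1, Scd2, Elovl6, Me1 and Thrsp), against 7.23%. For GFP-negative against control basal cells it held for Me1 alone, against 4.9% of all genes, and for GFP-positive against GFP-negative basal cells for Scd2, Elovl6 and Thrsp, against 7.04%. Elovl6, Scd1 and Thrsp are named in each of the 3 comparisons of GFP-positive with control cells. The share of all genes that would be named in all 3 was not computed. These comparisons share no arrays, but gates of a genotype may share pools of mice.

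Between lineages, Me1 was the member with the clearest difference. In controls it was 9.62-fold higher in Sca1-negative luminal than in basal cells (log2 3.27 ± 0.32 SE, limma adjusted p = 3.8e-06) and 7.66-fold higher in Sca1-positive luminal cells (2.94 ± 0.32, adjusted p = 8.7e-06). On the probe set used, the gaps among transgene-expressing cells were smaller, 1.62 and 1.42 (limma, adjusted p = 0.00335 and 0.0170). On the second Me1 set, 10405753, the means were 7.06 in mutant Sca1-negative luminal and 4.43 in GFP-positive basal cells. The matching control means were 5.78 and 3.50, so this gap was not smaller on that set. Its Sca1-positive luminal means were 6.09 in mutants and 5.38 in controls. Acaca was 1.66-fold lower in control Sca1-positive luminal than in control basal cells (log2 -0.73 ± 0.19, adjusted p = 0.0205), a comparison in which its second probe set also read lower (4.60 against 5.77). This Acaca call was lost without control basal replicate 2 (adjusted p = 0.101), without control Sca1-positive luminal replicate 2 (0.0790) or 3 (0.0681), and with only the compared arrays in the fit (0.0657). The Me1 call in mutant Sca1-positive luminal against GFP-positive basal cells was lost without mutant Sca1-positive luminal replicate 1 (0.0684) or 3 (0.145) and with repeated quantile normalization (0.0579).

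In the lineage comparisons limma called 1 member (Sca1-negative luminal against basal, controls), 2 (Sca1-positive luminal against basal, controls), 1 and 1 (the same gates among GFP-positive mutant cells), where 9.89%, 12.3%, 9.59% and 10.7% of all genes were called in either direction. Between the luminal gates limma called 0 members in controls (1 at an unadjusted p under 0.05) and 0 in mutants (2 at an unadjusted p under 0.05), where 0.762% and 4.08% of all genes were called. Of all 19937 genes, 1563 in controls and 2514 in mutants had an unadjusted p under 0.05. In GFP-positive basal cells Elovl6 (5.60 to 6.74), Scd2 (6.64 to 7.46) and Thrsp (4.13 to 5.80) lay above every control luminal array. The control luminal arrays read 3.51 to 4.99, 4.07 to 6.10 and 3.43 to 3.60, in this order. The share of all genes with such a gap was not computed.

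Whether the mutant difference itself differed between gates was tested with interaction terms. Of 30 such tests of members limma called 0 (2 at an unadjusted p under 0.05, both Me1), where 0.14%, 1.55% and 1.09% of all genes were called. The background shares are for Sca1-positive against Sca1-negative luminal, Sca1-negative luminal against basal, and Sca1-positive luminal against basal, in this order. In the same order, 1129, 2025 and 2028 of all 19937 genes had an unadjusted p under 0.05. For Me1 the interaction was -1.64 ± 0.46 (SE) between the Sca1-negative luminal and the GFP-positive basal difference (adjusted p = 0.108). It was -1.52 ± 0.49 between the Sca1-positive luminal and the basal difference (adjusted p = 0.215). These were called in 3 and 2 of 30 alternatives. They rest on the Me1 probe set used. On the second set the gap between Sca1-negative luminal and basal cells was not smaller in mutants than in controls. For Elovl6 the interactions were -0.87 and -0.33, with 95% intervals from -1.98 to 0.25 and from -1.51 to 0.85, so both intervals include 0.

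Averaged over the 10 members, each centred on its own mean over the 7 groups, the profile ran from -0.57 in control basal cells through -0.43 in GFP-negative basal, -0.32 in control Sca1-positive and -0.04 in control Sca1-negative luminal cells to 0.33 in GFP-positive basal, 0.46 in mutant Sca1-positive and 0.56 in mutant Sca1-negative luminal cells. Elovl6 (r = 0.90) and Scd1 (0.89) followed this mean most closely over the 7 group means, and Acss2 (-0.12) and Acly (0.22) least, the members being part of the mean. Among 4156 other genes whose group means spanned at least 1 log2 unit, those closest to the profile were Chpt1 (r = 0.98), Creb3 (0.98), Surf4 (0.97), Csn2 (0.97), Tfg (0.96), Cltc (0.95), Sat1 (0.95) and Slc11a2 (0.95). Csn2, which encodes the milk protein beta-casein, averaged 5.83 (control), 7.64 (GFP-negative) and 11.02 (GFP-positive) in the basal gate. With 7 points that share arrays, these correlations only describe the group means.

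Within groups, the members did not vary together as a set. Over the deviations of the 20 arrays from their group means, the 45 pairs of members had a median r of 0.07. The closest pairs were Scd1 with Srebf1 (r = 0.81), Scd1 with Me1 (0.69), Thrsp with Acss2 (0.67), Acly with Scd1 (0.57) and Me1 with Srebf1 (0.51). Of these 5 pairs, 4 are among Scd1, Srebf1, Me1 and Acly, the genes for which GFP-negative basal replicate 2 stands high. 

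Of 128 genes listed for the rest of lipid metabolism, in 10 lists, 119 were measured. In GFP-positive against control basal cells 8 rose and 0 fell, where 2.32% of all genes were called higher. In Sca1-negative luminal cells 6 rose and 0 fell, against 1.21% of all genes called higher. Between GFP-positive and GFP-negative basal cells 6 were higher and 1 was lower, against 2.05% called higher. Limma called 0 of the 119 in Sca1-positive luminal cells (20 at an unadjusted p under 0.05) and 0 in GFP-negative against control basal cells (8 at an unadjusted p under 0.05). Of all 19937 genes, 1786 and 1932 had an unadjusted p under 0.05 in these comparisons, in this order. The called genes were spread over the 10 lists, at most 2 per list and comparison.

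For NADPH supply, Pgd, an enzyme of the pentose phosphate pathway, was the member of its list that rose in GFP-positive basal cells against control (log2 1.59, adjusted p = 0.00159; 1 of 10 measured). It was also higher than in GFP-negative cells (1.07, adjusted p = 0.0320), where Nnt, the mitochondrial transhydrogenase, was lower (-0.59, adjusted p = 0.0413). In further chain elongation and desaturation, 2 of 17 rose against control: Elovl4, an elongase of very long chains (1.71, adjusted p = 0.0205), and Fads3 of the fatty acid desaturase family (0.80, 0.0365). In Sca1-negative luminal cells 1 of these 17 rose, the desaturase Fads2 (1.68, adjusted p = 0.00344).

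Of the fatty acid activating and synthesis genes outside the members, 1 of 12 rose in GFP-positive basal cells, the acyl-CoA synthetase Acsl4 (1.70, adjusted p = 0.00513). In the uptake and binding list 1 of 10 rose in each of 3 comparisons. This was Vldlr, a lipoprotein receptor, in GFP-positive basal cells (2.44 against control and 2.55 against GFP-negative cells). Vldlr averaged 3.89 in control and 3.78 in GFP-negative basal cells, close to the array median. In Sca1-negative luminal cells the gene was Fabp5, a fatty acid binding protein (1.50, adjusted p = 0.0354). Of 6 genes for milk lipid droplets, 2 rose in GFP-positive basal cells: Mfge8, a milk fat globule protein (2.30 against control), and Xdh, needed for droplet secretion (2.12, and 1.56 in Sca1-negative luminal cells).

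Synthesis of other lipids and its control showed few calls. Sqle, of cholesterol synthesis, rose in GFP-positive basal cells (1.76, adjusted p = 0.0017; 1 of 14 measured). Dgat1, which completes triglycerides, rose in Sca1-negative luminal cells (1.04, adjusted p = 0.00524; 1 of 14), as did Acadl, of fatty acid oxidation (0.98, 0.0238; 1 of 13), and Prkaa2, a catalytic subunit of AMPK (1.33, 0.0204; 1 of 7). Of 16 transcription control genes 1 was called, Lpin1, higher in GFP-positive than in GFP-negative basal cells (1.06, adjusted p = 0.0443). The calls of Lpin1, Nnt and, between the mutant basal groups, Elovl4 held under 12, 10 and 11 of 30 alternatives. Those of Fads3 against control, Fabp5 in Sca1-negative luminal cells and Pgd between the mutant basal groups held under 21 each, and those of Prkaa2 and Acadl under 25 each.

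**Figure D4:**
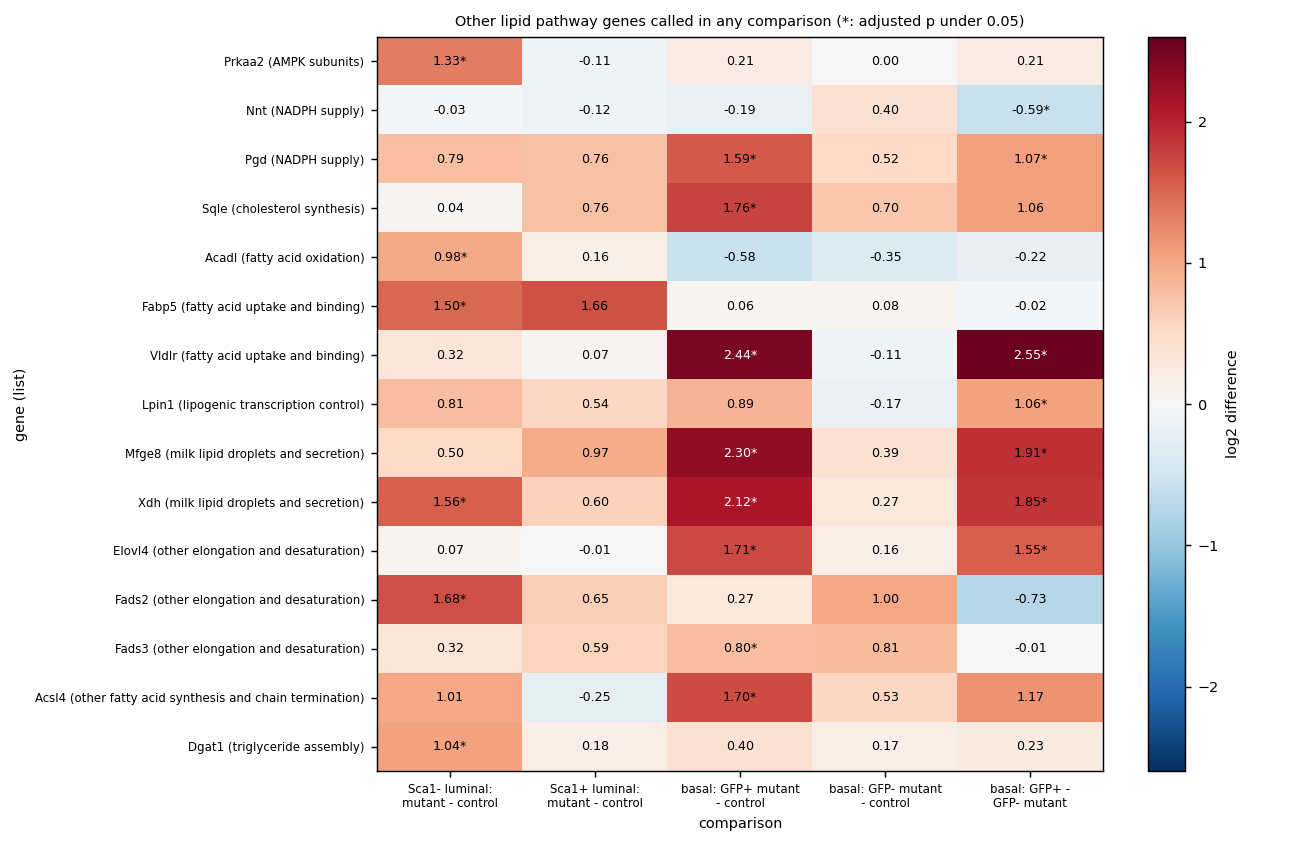
Log2 difference of the 15 other lipid genes called in any of the 5 comparisons, with genes and their lists as rows, comparisons as columns, colour for the difference and an asterisk for an adjusted p under 0.05. Vldlr, Mfge8 and Xdh have the largest values in GFP-positive basal cells against control (2.44, 2.30 and 2.12), and no gene is marked in Sca1-positive luminal cells.

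Markers of other cells were read beside these values. The gates were set by CD45, CD24 and Sca1, and the basal and luminal gates differed in basal and luminal marker genes. The mean over 7 basal markers was 10.14 in control basal and 5.18 and 4.63 in control luminal cells, and that over 6 luminal markers was 7.94 in control basal and 10.46 in both control luminal groups. In GFP-positive basal cells the luminal mean was 8.79 (8.30 to 9.19 by array), with 3 of 6 luminal markers called higher than in control basal cells (Cldn7 by 1.46, Krt18 by 1.01 and Krt19 by 1.48), and the basal mean was 9.69, with 2 of 7 called lower (Myh11 by -0.70 and Oxtr by -1.84). The GFP-negative basal cells had a luminal mean of 7.90. Its part in the differences of Elovl6, Scd2 and Me1 was not tested. In mutant Sca1-positive luminal cells 1 of 7 basal markers was called higher than in control, Krt5 (6.97 against 4.83, log2 2.14).

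Adipocytes express most of the 10 members strongly. The 8 measured adipocyte markers had means between 3.75 and 4.09 on all arrays. Adipoq had group means from 3.54 to 3.70, close to the array median, while Plin1 (4.40 to 4.72) and Lipe (4.53 to 6.10) lay above it. Fabp4 averaged 4.47 in GFP-negative, 3.94 in control and 3.50 in GFP-positive basal cells. Limma called 0 of the 8 in each of the 5 comparisons (at an unadjusted p under 0.05, 1 in each luminal gate, 0 in either mutant basal group against control and 2 between the mutant basal groups). Of all 19937 genes, 2235 in the Sca1-negative and 1786 in the Sca1-positive luminal gate had an unadjusted p under 0.05. There were 3187 in GFP-positive and 1932 in GFP-negative basal cells against control, and 2687 between the mutant basal groups. The part of adipocyte RNA in the members' values was not tested. Of 5 fibroblast markers 2 were called higher in GFP-positive than in control basal cells, Dcn (3.15) and Col1a2 (0.88), and 1 of 4 endothelial markers, Cdh5, was lower there (-0.99). The other 3 fibroblast markers were not called, and their means were no higher: Col1a1 (4.46 against 4.47), Col3a1 (3.78 against 3.84) and Pdgfra (3.41 against 3.53). Dcn was also bright in control luminal cells, at 10.48 in the Sca1-negative and 11.20 in the Sca1-positive gate. In mutant against control Sca1-negative luminal cells 1 of 5 fibroblast markers was lower, Dcn (7.65 against 10.48, log2 -2.83). Of 4 hormone-sensing luminal markers 4 were lower in mutant than in control Sca1-negative luminal cells, where the list mean was 4.84 against 6.94. In control Sca1-positive luminal cells this list mean was 7.69. Of 6 immune markers limma called 0 in each of the 5 comparisons. In the Sca1-negative luminal gate 2 of them had an unadjusted p under 0.05, as did 2235 of all 19937 genes. Cd68 read 6.55 to 7.11 in mutants and 5.35 to 5.99 in controls there, without overlap. Such higher arrays were found for 9.12% of all genes, and the other 5 immune markers had negative differences. The part of these markers' cells in the members' values was not tested.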

How the data were processed

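RNA of 7 sorted groups was read on 20 Affymetrix mouse arrays. The deposited table gives log2 probe set values with a column per array. That unit was read from the values (1.98 to 13.07, none missing). Per the submitters' processing notes affy was used, with no version named. How the authors normalized and filtered is not given in the sources used here. Of 34760 probe sets, 21640 had 1 gene symbol, 1321 several and 11799 were not listed. Of the single-symbol sets, 21553 were matched to RefSeq by gene number, which changed 0 symbols. The highest-mean probe set per symbol gave 19937 genes.

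A linear model with 7 group means over 20 arrays was fitted by lmFit and eBayes of limma 3.58.1 (R 4.3.3). Residual spread was pooled over all groups, and p was adjusted by Benjamini-Hochberg over 19937 genes in each of 14 contrasts, with a gene called at an adjusted p under 0.05. The verbs rose and fell are kept for calls and describe differences between groups. Replicates are pools of mice. There were 3 independent sortings, and the labels do not say whether the replicate numbers mark them. Gates of a genotype may share pools, which the fit treats as independent. On simulated data for the Sca1-negative luminal comparison (19937 genes), the fit was tested before use.

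The members, the gene lists and the comparisons were chosen with earlier results of these data known. The text names all members, every listed gene called in a main comparison, and the 8 genes most like the members' mean profile. Motifs were searched in RefSeq promoters of GRCm38.p6. Same-numbered arrays did not deviate together (r from -0.05 to 0.05 over 14 pairs), so the numbers were not used as pairs. The alternatives were 10 other settings and leaving out each of the 20 arrays in turn. Repeats for the other lipid genes and for the members called between lineages were added after their values were seen. No slide or scan information was given, so no batch could be tested.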

Additional observations from a re-analysis of the deposited data

Results flagged for a closer look

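Limma called 0 of 30 interaction tests on the members (2 at an unadjusted p under 0.05), and 5 of 45 interaction tests on the 15 other lipid genes, which were picked because they were called in at least 1 main comparison. By test, 0 of 15 were called between the luminal gates, 4 of 15 between the Sca1-negative luminal and the basal gate, and 1 of 15 between the Sca1-positive luminal and the basal gate, where 0.14%, 1.55% and 1.09% of all genes were called. In the same order, 1129, 2025 and 2028 of all 19937 genes had an unadjusted p under 0.05. The 5 called tests each compare the mutant against control difference in a luminal gate with the GFP-positive against control difference in the basal gate (limma, p adjusted over all genes), and all of them share the basal arrays. Vldlr, the lipoprotein receptor, had a larger difference in basal cells than in Sca1-negative luminal cells (interaction -2.12, adjusted p = 0.00243). Its basal difference was also larger than that in Sca1-positive luminal cells (-2.37, 0.00184). The control means of Vldlr were close to the array median, at 3.89 in basal, 3.81 in Sca1-negative and 3.56 in Sca1-positive luminal cells. Mfge8, the milk fat globule gene, also had a larger difference in basal than in Sca1-negative luminal cells (-1.79, 0.00824), at 2.30 against 0.50. For Sqle, of cholesterol synthesis, the interaction was -1.73 (adjusted p = 0.0443), called under 11 of 30 alternatives. Acadl, of fatty acid oxidation, went the other way (1.55, adjusted p = 0.0135), with 0.98 in Sca1-negative luminal and -0.58 in basal cells.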

How the results depend on the processing

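No called value of a member or pathway gene given above changed sign under the 30 alternatives. With only the compared arrays in the fit, the members called became 1 in mutant against control Sca1-negative luminal cells, 0 in GFP-negative against control basal cells, 2 and 1 in control Sca1-negative and Sca1-positive luminal against basal cells, 2 in mutant Sca1-negative luminal against GFP-positive basal cells, 1 between the mutant luminal gates and 1 in each interaction of a luminal with the basal gate; 2 pathway genes were called between the mutant basal groups. Array weights gave 0 members in GFP-negative against control basal cells and 13 pathway genes in Sca1-negative luminal cells. The mean of all probe sets gave 2 members in control Sca1-negative luminal against basal cells. For mutant Sca1-positive luminal against GFP-positive basal cells, the intensity trend gave 2 members, bright genes only 2 and repeated quantile normalization 0. With arrays left out in turn, the members called ranged from 0 to 1 (GFP-negative against control basal, and both interactions with the basal gate), 1 to 2 (control Sca1-negative and Sca1-positive luminal against basal, mutant Sca1-negative luminal against GFP-positive basal) and 0 to 2 (mutant Sca1-positive luminal against GFP-positive basal). Pathway genes called ranged from 2 to 9 in Sca1-negative luminal, 0 to 2 in Sca1-positive luminal, 0 to 1 in GFP-negative against control basal and 3 to 9 between the mutant basal groups. The cause was not tested.

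The replicate block gave 3 members in GFP-positive against control basal cells, 1 in GFP-negative against control and 3 between the mutant basal groups, as without it, and 1 pathway gene in Sca1-positive luminal cells against 0. Under it Pgd (adjusted p = 0.0519) and Lpin1 (0.0524) were no longer called between the mutant basal groups. Arrays correlated best with their own number in 3 of 3 cases between the mutant basal groups, 2 of 2 in Sca1-positive luminal cells and 1 of 3 in each of the other comparisons, a hint from the data only. Deviations of same-numbered arrays correlated at -0.05 to 0.05 over 14 pairs, so the block was not used in the values above. The number of arrays limits every value: Scd1, with the widest spread, had standard errors of 0.79 to 0.89 in the main comparisons.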
